A study of Mus musculus with 12 samples.

Results

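The genes described here are 35 skeletal muscle genes, measured in the palatal shelves of mouse embryos. They were picked by symbol: regulators of the muscle lineage, proteins of the contractile filaments and their scaffold, calcium handling proteins, subunits of the muscle acetylcholine receptor and muscle creatine kinase. All 35 were found among the 19083 genes of the deposited table, and 34 of them reached at least 1 FPKM (the fragments of a gene divided by its length and by the size of the library) in at least 3 of the 12 libraries, as did 14107 genes in all. Of the 34, 5 are regulators or fusion genes, 21 belong to the sarcomere and 8 to the remaining roles. The member left out by this limit was Myf6.

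Each library came from the palatal shelves of 1 C57BL/6 embryo, and every sample is labelled embryonic day 14. The embryos were Pax9-/- mutants, or controls that were Pax9+/- or wild-type. The dams were Pax9+/- females, either listed as control or given daily tail-vein injections of WAY-262611 between E10.5 and E14. WAY-262611 is a small-molecule Wnt agonist that acts against the Wnt inhibitor Dickkopf-1. The 12 libraries form 4 groups of 3: untreated mutants, untreated controls (1 wild-type and 2 Pax9+/-), WAY mutants and WAY controls (2 wild-type and 1 Pax9+/-). Pax9-/- is a germline loss present in every cell of the embryo, so a muscle cell, the mesenchyme around it and the epithelium all carry it. The labels do not say what, if anything, the untreated dams were injected with.

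Other features of the labels matter for these genes. Each sample title carries a number before the embryo's own, and 4 such title numbers occur, each within 1 treatment. Each column name of the deposited table begins with a number, here called its prefix, and 2 prefixes occur. The smaller prefix holds 4 libraries with 2 title numbers, the untreated pair and the WAY pair, each of 1 mutant and 1 wild-type embryo. The larger prefix holds 8 libraries with the other 2 title numbers, the untreated quartet and the WAY quartet, each of 2 mutants and 2 controls. The controls of the untreated quartet are Pax9+/-, and those of the WAY quartet are 1 Pax9+/- and 1 wild-type embryo. The labels do not say what either number stands for, and a title number is at once a prefix and a treatment. Libraries are named below by treatment, genotype and replicate, with replicate 1 always of the smaller prefix and replicates 2 and 3 of the larger. The FPKM values gave back whole reads for 19082 genes, which set the depth at 36.8 to 49.8 M reads per library. Pax9 stood at 5.9 ± 0.847 FPKM (SD, n = 6) in the mutants, 21.4 ± 1.28 (n = 3) in the Pax9+/- and 32 ± 4.82 (n = 3) in the wild-type embryos, in the order of the labels.

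Much of the skeletal muscle of the head, though not that of the tongue, arises from mesoderm that enters the pharyngeal arches. Myf5 and Myod1 commit cells to the lineage, Myog drives their differentiation and fusion, Mymk fuses them, and the differentiated fibre then makes embryonic myosins, troponins and the fetal acetylcholine receptor. The palatal shelf at this age is mostly neural crest mesenchyme covered by epithelium. The muscles of the soft palate form at its posterior end, and the tongue muscle lies next to it.

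All 34 members were read in every library, at widely different levels. The sarcomere genes were the most abundant, led by Actc1 (mean over 12 libraries 107.1 FPKM) and Mylpf (104.5 FPKM), and the lowest of the 34 by mean FPKM was Myf5 (0.8935 FPKM). As a muscle level for each library, the mean of log2(FPKM + 0.5) over the 34 members was taken. It was 3.97 in untreated mutant 1 and 2.34 in untreated control 1, 3.95 in WAY mutant 1 and 3.74 in WAY control 1. In the larger prefix it was 2.25 and 2.99 in the untreated mutants, 2.58 and 2.63 in the untreated controls, 2.81 and 3.17 in the WAY mutants and 2.81 and 2.56 in the WAY controls. The 3 highest libraries were 3 of the 4 of the smaller prefix, and the fourth of that prefix, untreated control 1, was the second lowest of the 12. In a bulk library, fewer muscle cells and less muscle RNA per cell cannot be told apart.

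**Figure D1:**
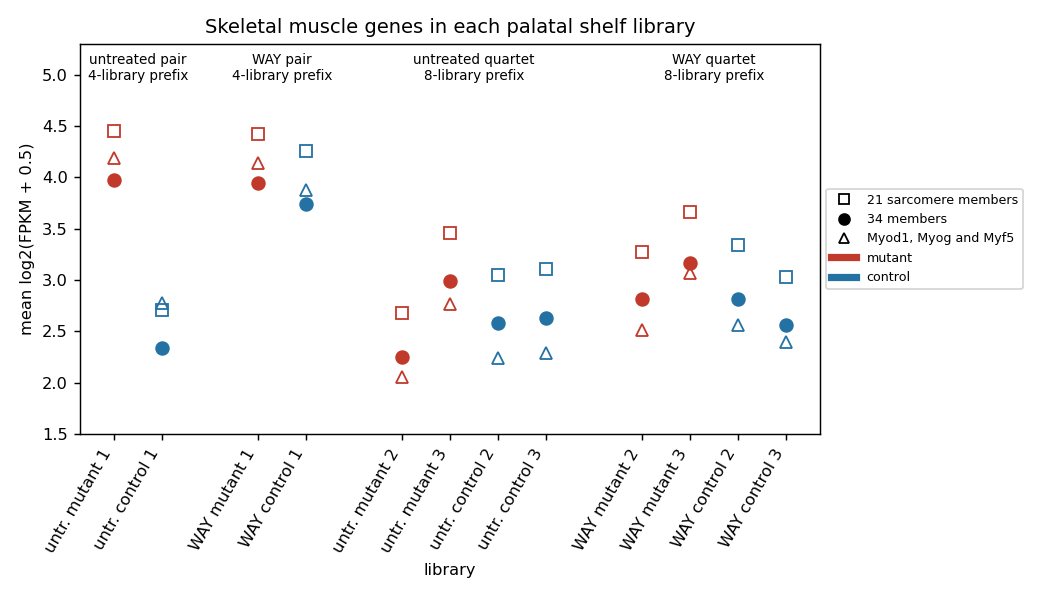
Mean log2(FPKM + 0.5) of the 34 members (circles), the 21 sarcomere members (squares) and Myod1, Myog and Myf5 (triangles) in each library, by title number and column-name prefix, with mutants in red and controls in blue. Untreated mutant 1, WAY mutant 1 and WAY control 1 sit above 3.7 for all members, and the other 9 libraries lie between 2.25 and 3.17.

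The mean log2 level of Myod1, Myog and Myf5 spanned a range of 2.14 over the 12 libraries, that of all 5 tested regulator and fusion genes 1.70, and that of the 21 sarcomere members 1.76. Myod1 (chr7:46376474-46379099, mm10), the bHLH factor that commits cells to muscle, was at 27.6 and 9.199 FPKM in untreated mutant 1 and control 1, and at 26.5 and 22.35 FPKM in WAY mutant 1 and control 1. In the libraries of the larger prefix it was at 5.117 and 8.239 FPKM in the untreated mutants, 5.241 and 6.018 in the untreated controls, 7.002 and 10.8 in the WAY mutants and 7.299 and 5.776 in the WAY controls. Mutant and control values overlapped, and 3 libraries of the smaller prefix were at more than 20 FPKM while no other exceeded 10.8.

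Myog (chr1:134289989-134292548), which switches on the differentiation genes, was high in the same 3 libraries. It was at 82.7, 25.5, 83.9 and 72.6 FPKM in untreated mutant 1, untreated control 1, WAY mutant 1 and WAY control 1. The values in the larger prefix were 15.9 and 28.6 FPKM (untreated mutants), 17.6 and 17.9 (untreated controls), 24.0 and 37.4 (WAY mutants), and 27.1 and 19.3 (WAY controls). Untreated control 1 lay inside the range of the 8 libraries of the larger prefix, and the other 3 of its prefix lay above it.

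Myf5 (chr10:107482908-107486134), an early determination factor, was low throughout. It stood at 2.106, 0.779, 1.9 and 1.396 FPKM in the replicate 1 libraries, in the order given for Myog. Its values in the larger prefix were 0.2661 and 0.753 FPKM in the untreated mutants, 0.5104 and 0.477 in the untreated controls, 0.5001 and 0.893 in the WAY mutants and 0.458 and 0.683 in the WAY controls. Mutant and control values overlapped here too, and the 3 highest were again untreated mutant 1, WAY mutant 1 and WAY control 1. Myf6, its neighbour on chromosome 10 and a factor of later fibres, had 2 to 18 reads per library and was not tested. Its FPKM values were 0.289, 0.0413, 0.282 and 0.228 in the replicate 1 libraries. Those of the larger prefix were 0.0342 and 0.1275 in the untreated mutants, 0.1981 and 0.0816 in the untreated controls, 0.1712 and 0.2014 in the WAY mutants and 0.1446 and 0.18 in the WAY controls.

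Mymk (chr2:27061636-27072179) encodes myomaker, the membrane protein that fuses myoblasts. It was at 16.5, 4.74, 16.1 and 15.2 FPKM in the replicate 1 libraries. In the larger prefix it was at 3.189 and 5.295 FPKM in the untreated mutants, 3.404 and 3.995 in the untreated controls, 5.233 and 6.788 in the WAY mutants and 6.295 and 4.296 in the WAY controls. The 3 libraries with high Myog were again the high ones.

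Mef2c (chr13:83504034-83667080), a MADS-box partner of the myogenic factors that is also made by neural crest, endothelium and heart, did not follow this order. It was at 26.8, 28.1, 29.9, 31.9, 28.9 and 30.9 FPKM in untreated mutant 1, WAY mutant 1, untreated mutant 2, WAY mutant 2, untreated mutant 3 and WAY mutant 3. The corresponding controls were at 18.1, 19.6, 24.7, 20.3, 23.6 and 23.4 FPKM. All 6 mutants were above all 6 controls. Its whole range over the 12 libraries was 0.798 on the log2 scale, against 2.36 for Myog.

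In the thick filament, Mylpf (chr7:127208890-127214298), the regulatory myosin light chain of fast fibres, was at 188, 55.2, 189.5 and 178.6 FPKM in the replicate 1 libraries. In the larger prefix it was at 49.3 and 83.7 FPKM in the untreated mutants, 69.9 and 71.3 in the untreated controls, 83.1 and 104.5 in the WAY mutants and 107.8 and 72.9 in the WAY controls. Myh8 (chr11:67277124-67308634), the perinatal myosin heavy chain, had the widest range of this role (2.28 on the log2 scale). Its replicate 1 libraries were at 8.935, 1.449, 8.492 and 7.789 FPKM, and untreated control 1 was the lowest of all 12. The other Myh8 values were 1.641 and 4.225 FPKM in the untreated mutants, 2.659 and 2.592 in the untreated controls, 3.236 and 4.301 in the WAY mutants and 3.083 and 2.214 in the WAY controls. The embryonic myosin heavy chain Myh3 was the most abundant heavy chain at a mean of 47.6 FPKM, against 4.22 for Myh8 and 3.83 for Myh7, the slow and cardiac form. Close paralogs such as these can share reads, so their separate levels are uncertain.

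In the thin filament, Actc1 (chr2:114047282-114053548), the cardiac alpha actin that embryonic skeletal muscle also uses, had both the highest mean and the widest range of its role. It was at 224.6, 65.4, 232.8 and 196.3 FPKM in the replicate 1 libraries. In the larger prefix it was at 46.2 and 78.2 FPKM in the untreated mutants, 65.01 and 62.9 in the untreated controls, 71.8 and 99.0 in the WAY mutants and 77.7 and 64.7 in the WAY controls. Skeletal alpha actin, Acta1, had a mean of 56.5 FPKM, and the troponins ran from a mean of 4.104 FPKM (Tnni2, fast troponin I) to 37.5 FPKM (Tnnc1, slow and cardiac troponin C). The cardiac genes fixed as a check on heart tissue were low: of 8 listed, 5 were in the table and 1 (Tnni3) passed the limit, and their summed level was 1.87 to 3.15 FPKM in every library.

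Des (chr1:75360329-75368579), the intermediate filament desmin, led the scaffold members. It was at 20.8, 5.998, 19.3 and 16.4 FPKM in the replicate 1 libraries. Its values in the larger prefix were 6.1 and 9.809 FPKM (untreated mutants), 8.089 and 7.308 (untreated controls), 7.82 and 9.61 (WAY mutants) and 8.253 and 7.295 (WAY controls). The giant spring titin (Ttn) averaged 0.929 FPKM and Myoz2, a Z-disc protein of slow fibres, 1.187 FPKM.

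The calcium genes showed the same 3 high libraries. Atp2a1 (chr7:126445858-126463108), the fast calcium pump of the sarcoplasmic reticulum, was at 19.0, 4.431, 19.8 and 14.7 FPKM in the replicate 1 libraries. In the larger prefix it was at 4.15 and 7.975 FPKM in the untreated mutants, 5.14 and 5.675 in the untreated controls, 6.573 and 9.008 in the WAY mutants and 5.661 and 4.709 in the WAY controls. Casq2 (chr3:102086415-102146514), calsequestrin, which stores the calcium, was at 15.8, 3.974, 14.8 and 11.5 FPKM in the replicate 1 libraries. Its other values were 3.218 and 6.297 FPKM in the untreated mutants, 5.088 and 5.484 in the untreated controls, 6.317 and 7.774 in the WAY mutants and 4.908 and 4.909 in the WAY controls. For both genes untreated control 1 fell within the range of the 8 libraries of the larger prefix. The calcium release channel Ryr1 and the voltage sensor Cacna1s were lower, with means of 2.258 and 1.115 FPKM.

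Chrng (chr1:87204657-87212694), the fetal gamma subunit of the acetylcholine receptor, had the widest range of any of the 35 (2.38 on the log2 scale). It was at 10.96, 2.226, 9.88 and 8.128 FPKM in the replicate 1 libraries. Its values in the larger prefix were 1.698 and 3.905 FPKM in the untreated mutants, 2.175 and 2.771 in the untreated controls, 3.101 and 4.149 in the WAY mutants and 3.126 and 2.261 in the WAY controls. Untreated control 1 was inside the range of those 8 and the other 3 libraries of its prefix were above it. Chrna1, the agonist-binding alpha subunit, and Chrnd, the delta subunit, had means of 2.871 and 1.431 FPKM.

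Ckm (chr7:19404776-19422841), the muscle creatine kinase that buffers ATP in mature fibres, stood apart. It was at 0.368, 0.2185, 0.728 and 0.448 FPKM in the replicate 1 libraries. In the larger prefix it was at 0.512 and 1.863 FPKM in the untreated mutants, 2.534 and 0.792 in the untreated controls, 1.001 and 1.048 in the WAY mutants and 1.057 and 1.059 in the WAY controls. All 4 libraries of the smaller prefix were at 0.728 FPKM or below, and of the other 8 only untreated mutant 2 was that low. These values rest on 12 to 145 reads.

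**Figure D2:**
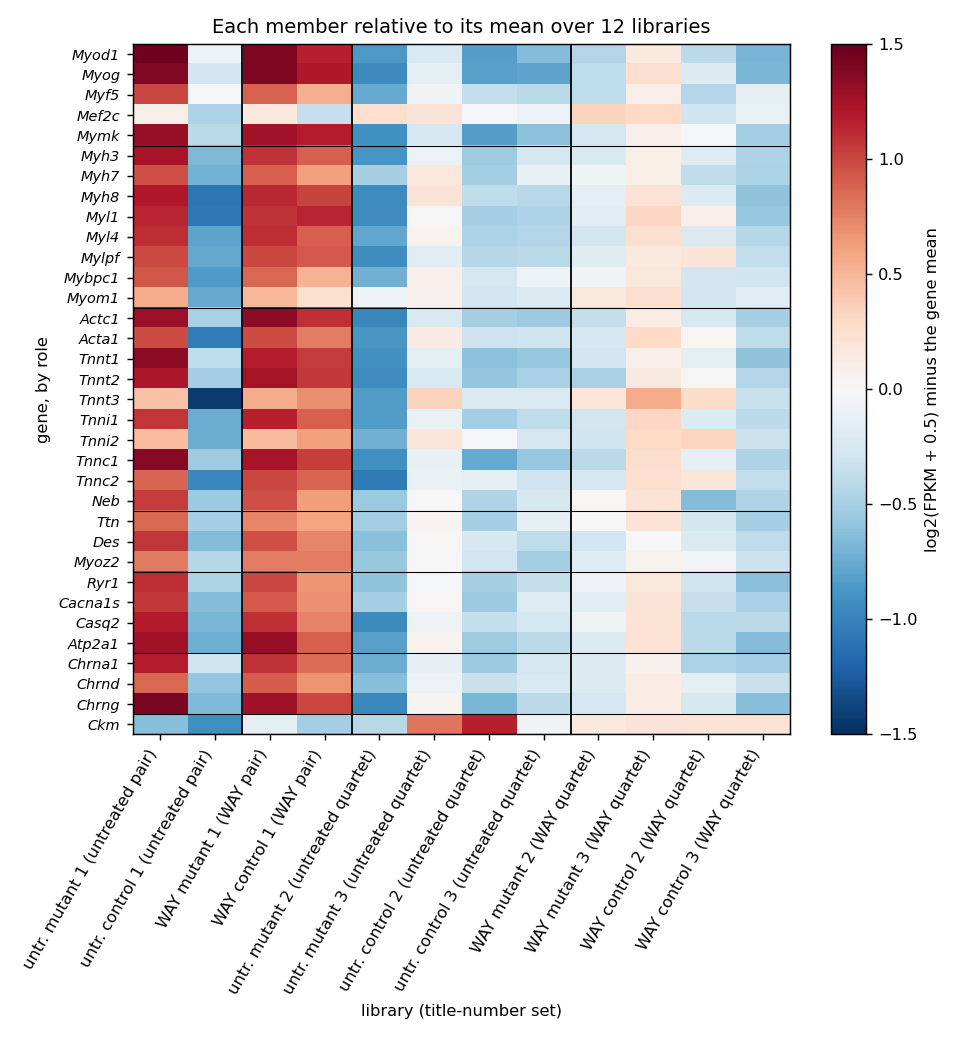
Each of the 34 members (rows, by role) in each library (columns, with title-number set), as log2(FPKM + 0.5) minus the gene's mean over the 12 libraries; thick lines separate the title numbers. Most rows are red in untreated mutant 1, WAY mutant 1 and WAY control 1, while Mef2c is red in the mutants of the larger prefix and Ckm is blue in the 4 libraries of the smaller prefix.

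The promoters of 4 members are shown because the myogenic factors bind the E-box CANNTG, most of all in the form CAGCTG, and these windows differ in how many they hold. They were chosen after their content had been seen. Each is the 250 bases before a start annotated by RefSeq (GRCm38.p6, the assembly of mm10), printed 5′ to 3′ on the gene's strand, with every CANNTG in capitals. The windows are chr2:73580339-73580588 (minus strand) for Chrna1, chr1:87205561-87205810 (plus) for Chrng, chr7:127211358-127211607 (plus) for Mylpf and chr1:134289754-134290003 (plus) for Myog. Those of Chrng and Mylpf lie inside the longer GENCODE gene spans given above.
Chrna1: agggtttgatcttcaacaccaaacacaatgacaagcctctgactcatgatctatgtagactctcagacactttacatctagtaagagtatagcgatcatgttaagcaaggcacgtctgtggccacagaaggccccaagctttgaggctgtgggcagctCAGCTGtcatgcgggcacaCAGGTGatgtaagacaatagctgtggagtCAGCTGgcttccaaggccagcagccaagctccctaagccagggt
Chrng: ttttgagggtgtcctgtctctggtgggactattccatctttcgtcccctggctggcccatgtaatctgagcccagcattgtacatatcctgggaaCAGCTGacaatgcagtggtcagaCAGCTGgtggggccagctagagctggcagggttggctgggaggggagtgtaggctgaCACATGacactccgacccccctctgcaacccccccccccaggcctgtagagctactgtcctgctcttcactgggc
Mylpf: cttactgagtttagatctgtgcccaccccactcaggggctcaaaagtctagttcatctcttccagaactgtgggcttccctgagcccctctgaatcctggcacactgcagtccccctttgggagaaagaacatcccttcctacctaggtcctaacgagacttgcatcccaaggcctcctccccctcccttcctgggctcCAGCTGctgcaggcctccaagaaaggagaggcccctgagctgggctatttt
Myog: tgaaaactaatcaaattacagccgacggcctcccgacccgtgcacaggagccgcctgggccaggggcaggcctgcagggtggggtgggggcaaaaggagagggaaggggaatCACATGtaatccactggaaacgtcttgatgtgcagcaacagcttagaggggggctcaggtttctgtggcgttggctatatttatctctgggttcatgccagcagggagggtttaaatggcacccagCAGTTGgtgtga

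Chrna1 and Chrng each hold 2 copies of CAGCTG, Mylpf holds 1 and Myog none. An entry existed for 28 of the 35 members, and CAGCTG, which reads the same on both strands, was found in 13 of them (46.4%), against 3979 of 27025 genes (14.7%). It was present in 2 of 2 acetylcholine receptor genes with an entry, 2 of 4 calcium genes, 3 of 8 thick filament, 3 of 7 thin filament and 2 of 3 scaffold genes, in Ckm, and in 0 of 3 regulators. CANNTG in any form, which includes the other E-boxes, was in 24 of 28 members (85.7%) against 69.3% of genes. CAGGTG on either strand was in 7 of 28 (25%) against 19.4%, and TATAAA on either strand in 6 of 28 (21.4%) against 14.3%. These are letter matches in a window, without any measure of binding.

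Whether mutant and control embryos differed was asked first within each treatment and then over both. The test was limma's on log2(FPKM + 0.5) over all 14107 genes, with Benjamini-Hochberg adjustment and a threshold of 0.05. In the untreated embryos 0 of 34 members passed (2 at an unadjusted p under 0.05), where 0.0922% of all genes passed and 3.76% had an unadjusted p under 0.05. The median difference, mutant minus control, was 0.59 over the members and -0.01 over all genes, and 33 of 34 members were above 0. The member median was 0.112 without untreated mutant 1 and 1.004 without untreated mutant 2. The smallest p-values belonged to Mef2c (difference 0.369 ± 0.112 SE, adjusted p = 0.817), Myom1, the M-band protein myomesin (0.600 ± 0.202, adjusted p = 0.949), and Myh7 (0.656 ± 0.406, adjusted p = 1.00). With WAY, 0 of 34 passed (1 at an unadjusted p under 0.05) where 0.447% of genes did and 18.7% had an unadjusted p under 0.05, with a median of 0.26 over members and -0.04 over all genes. Here the leading values were those of Mef2c (0.514 ± 0.112, adjusted p = 0.0786), Myom1 (0.369 ± 0.202, adjusted p = 0.35) and Neb, the thin filament ruler nebulin (0.566 ± 0.429, adjusted p = 0.51).

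Over both treatments 1 of 34 members was higher in the mutants and 0 lower, where 0.319% of genes were called higher and 0.851% either way. That member was Mef2c, by 0.442 ± 0.079 on the log2 scale (limma, adjusted p = 0.0337). It was also the 1 of 34 whose 6 mutants and 6 controls did not overlap, as were 0.751% of genes in that direction. Mef2c was higher in the mutant in each title number, by 0.55 in the untreated pair, 0.51 in the WAY pair, 0.28 in the untreated quartet and 0.52 in the WAY quartet. Without any 1 of 7 libraries (WAY control 1 and 2, untreated control 3, and replicates 2 and 3 of both mutant groups) its adjusted p was 0.057 to 0.107, with differences of 0.42 to 0.47. With the title number as a block its adjusted p was 0.00152 over both treatments and 0.00672 with WAY, and Myom1 then passed over both treatments as well (0.485 ± 0.126, adjusted p = 0.0472); that fit called 8.24% of genes over both treatments and 10.1% with WAY. With prefix as a term Mef2c passed in the untreated embryos (1 of 34 members, 0.737% of genes), with WAY (1 of 34, 12.8% of genes) and, with Myom1, over both treatments (2 of 34, 9.87% of genes). In the 8 libraries of the larger prefix alone 0 of 34 passed untreated (0.354% of genes), Mef2c passed with WAY (2.02% of genes), and Mef2c and Myom1 passed over both treatments (3.13% of genes). Mef2c is not made by muscle alone, and markers of 3 other cell types were set beside it in the comparison over both treatments. The 6 endothelium markers summed to 104.3 to 117.1 FPKM over the 12 libraries, and 0 of 6 passed. Of 7 smooth muscle and pericyte markers 1 was higher in the mutants, the pericyte gene Rgs5 (0.519 ± 0.083, adjusted p = 0.0215). Of 8 palatal mesenchyme markers Osr2 was higher (0.933 ± 0.105, adjusted p = 0.0025), and Msx1 (-1.33 ± 0.13, adjusted p = 0.00118) and Pax9 itself were lower. The part of these cells in the Mef2c difference was not tested.

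Over the 34 members the difference between genotypes was widest in 1 title number. In the untreated pair the mutant was above the control for 34 of 34 members, with a median difference of 1.72 and values from 0.273 (Ckm) to 2.28. In the WAY pair the median was 0.232 with 31 of 34 above 0, in the untreated quartet it was 0.0178 with 18 of 34, and in the WAY quartet it was 0.315 with 32 of 34. Over all genes the 4 medians lay between -0.0423 and -0.0157, and 41.3% to 45.3% of genes were above 0. Untreated mutant and control were far apart in the pair, while the means of the 2 mutants and 2 controls of the untreated quartet lay close together. The control of that pair is wild-type and those of the quartet are Pax9+/-, so control genotype and title number cannot be told apart here. The contrast in the pair is 1 library against 1 and has no replicate check.

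**Figure D3:**
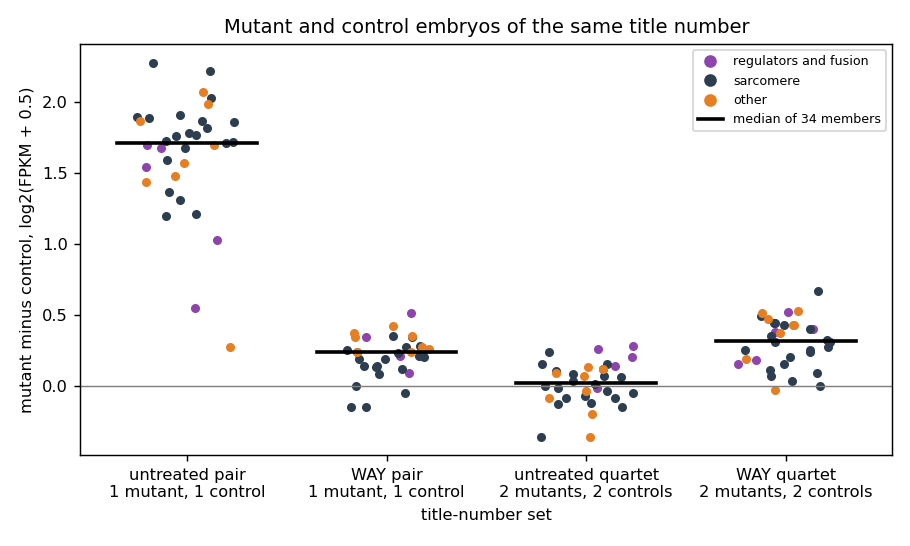
Mutant minus control, log2(FPKM + 0.5), for each of the 34 members within each title number, coloured by role, with the median as a bar. The points of the untreated pair (1 mutant, 1 control) centre on 1.72, while those of the other title numbers centre between 0.0178 and 0.315. Controls are wild-type in the pairs, Pax9+/- in the untreated quartet, and 1 Pax9+/- and 1 wild-type in the WAY quartet.

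Treatment moved no member past the threshold. WAY against untreated gave 0 of 34 members in the mutants, 0 in the controls and 0 over both genotypes, and 0% of all genes passed in each of the 3 comparisons. At an unadjusted p under 0.05 there were 0, 0 and 1 members and 133, 2225 and 1415 genes. The member medians were 0.23, 0.55 and 0.39, beside 0.01, 0.04 and 0.02 for all genes, and the mutant and control comparisons share no library. Single libraries moved them: the median in mutants ran from -0.179 without untreated mutant 2 to 0.754 without untreated mutant 1, that in controls from 0.143 without WAY control 1 to 0.832 without WAY control 3, and that over both genotypes from 0.167 without untreated mutant 2 to 0.688 without untreated mutant 1. The member nearest to the threshold was Tnnt3, the fast troponin T, at 0.644 ± 0.291 over both genotypes (limma, adjusted p = 0.497). Mylpf followed at 0.569 ± 0.337 (adjusted p = 0.602) and Myom1 at 0.233 ± 0.143 (adjusted p = 0.618). The interaction of genotype and WAY was passed by 0 of 34 members and 0% of genes (0 members and 704 genes at an unadjusted p under 0.05), with a member median of -0.3. Because each title number belongs to 1 treatment, WAY and title number cannot be told apart within a prefix.

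More of the members passed between title numbers and between prefixes. Between the 4 title numbers, with genotype in the fit, 17 of 34 members passed limma's moderated F test, where 31.6% of all genes did. They were 4 of 5 regulators (Myod1 with adjusted p = 0.00183, Myog 0.00459, Mymk 0.00676 and Myf5 0.0169, but not Mef2c at 0.0556), Myh3 and Myl4 in the thick filament, Actc1, Tnnt1, Tnnt2, Tnni1, Tnnc1 and Neb in the thin filament, Myoz2, Ryr1, Atp2a1, Chrna1 and Chrng. This count changed with single libraries. It was 30 of 34 without untreated control 1, where 25.2% of genes passed, and 11 of 34 without WAY mutant 3, where 26.2% did. Without untreated mutant 1, WAY mutant 1 or WAY control 1, Myf5 fell below the filter on low values, and the counts were 30 of 33 (21.9% of genes), 5 of 33 (22% of genes) and 3 of 33 (21.4% of genes). The last 2 lie below the share of all genes.

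Between the prefixes, in a fit that kept the 4 groups, 27 of 34 members passed, where 43.8% of all genes did. In the libraries of the larger prefix, 25 were lower, where 23% of all genes were, and 2 were higher, where 20.8% were. The member median was -0.85 and that of all genes -0.02. The 3 largest shifts were in regulators and the fusion gene: Myod1 differed by -1.48 ± 0.202 (adjusted p = 0.000227), Myog by -1.39 ± 0.227 (0.000722) and Mymk by -1.26 ± 0.218 (0.00105). Next came the slow and embryonic thin filament genes Actc1 (-1.21 ± 0.252, adjusted p = 0.00311), Tnnt1 (-1.19 ± 0.23, 0.00199) and Tnnc1 (-1.16 ± 0.249, 0.00371). Myf5 differed by -0.908 ± 0.18 (adjusted p = 0.00238). It reached 1 FPKM in 3 libraries only, all of the smaller prefix, so the filter kept it through the libraries where it was high. Its calls here and between title numbers are therefore no separate support, although the counts include them. All 4 calcium genes and all 3 receptor subunits were lower as well, with medians of -0.87 and -1.05. The 2 that were higher were Ckm (0.831 ± 0.273, adjusted p = 0.0307) and Mef2c (0.211 ± 0.051, adjusted p = 0.00744); without untreated control 1 Ckm no longer passed (0.62 ± 0.3, adjusted p = 0.134) and Mef2c did (0.147 ± 0.047, adjusted p = 0.0331). Those that did not pass were Myh8, Mybpc1, Myom1, Acta1, Tnnt3, Tnni2 and Tnnc2, at -0.846 to -0.097. Tnnt3 (-0.097 ± 0.307) and Myom1 (-0.203 ± 0.137) were closest to 0.

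No member separated the 4 libraries of the smaller prefix from the 8 of the larger without overlap, because of untreated control 1; 10.3% of genes were lower in the 8 without overlap. With that library left out, after its low level had been seen, 30 of 34 members were lower in the 8 without overlap, where 13.3% of genes were; Mef2c, Myom1, Tnnt3 and Ckm overlapped. The fit then called 31 of 34 between prefixes, 30 of them lower, where 19.3% of genes were lower. It called 11 of 33 without untreated mutant 1 (32.9% of genes), 14 of 33 without WAY mutant 1 (34% of genes) and 12 of 33 without WAY control 1 (36.7% of genes), which are shares near those of all genes.

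The share of the spread that goes with each factor was set out as sums of squares over the 12 libraries. Of the spread of the muscle level, title number held 54.5%, made up of prefix (40.1%), treatment (10.8%) and their product (3.61%), while genotype held 12.8% and 32.7% was left. For the median of all genes the shares were 48.4% for title number and 8.71% for genotype. Title number has 3 degrees of freedom and genotype 1, so the shares are not on an equal footing. Title number held 74.7% of the spread of Myod1, Myog and Myf5 together and 52.6% of that of the sarcomere members. The first share includes Myf5, which the filter kept through the libraries where it was high. Myod1 and Myog taken singly had shares of 77.5% and 72.5%. The shares for single members ran from 16.4% (Mef2c) to 77.5% (Myod1), and genotype's share was highest for Mef2c (75.3%) and Myom1 (46.6%). Without untreated control 1 title number held 86.2% and genotype 8.13%. Without untreated mutant 1 title number held 83.4%, treatment taken alone 35.2% and genotype 6.11%. With a library left out the factors overlap, so their shares do not add up. Without WAY mutant 1 title number held 39.7%, treatment 4.62% and genotype 6.22%. Genotype held 29.6% without WAY control 1 and 28.9% without untreated mutant 2. Over all 12 such omissions treatment held 4.62% to 35.2% and genotype 6.11% to 29.6%.

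**Figure D4:**
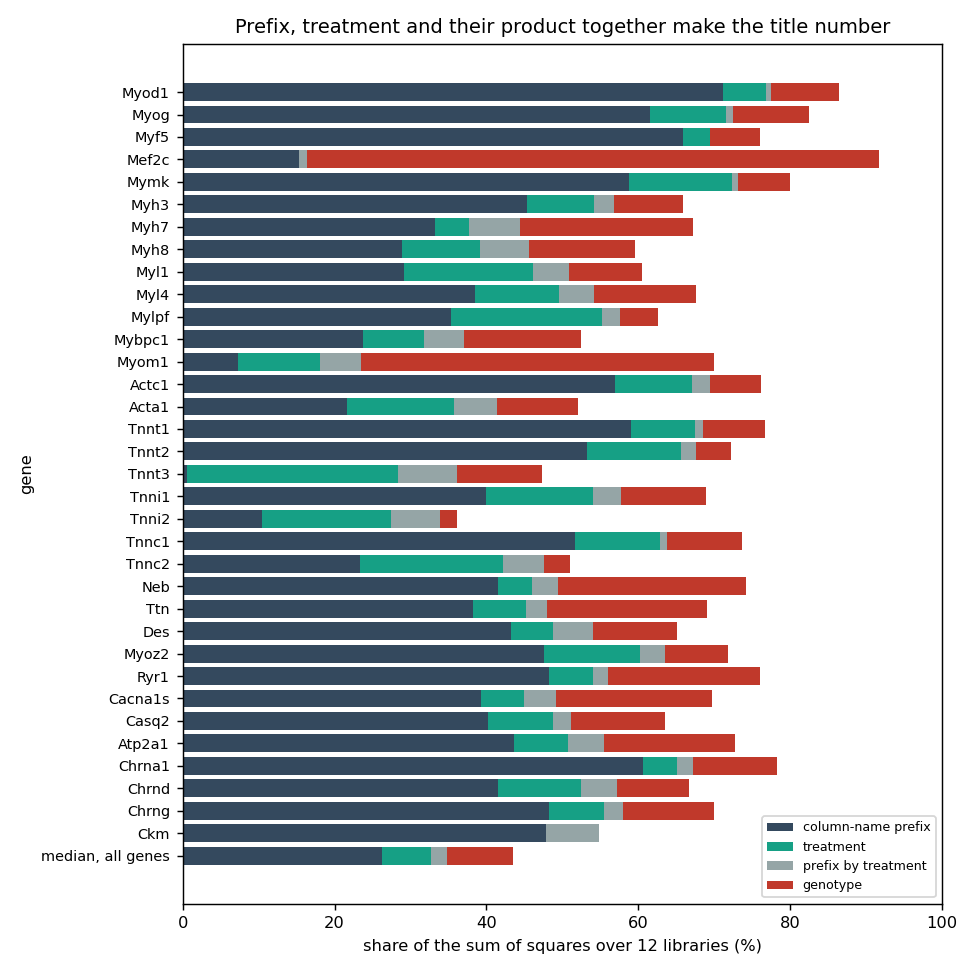
Share of the sum of squares of log2(FPKM + 0.5) over the 12 libraries that goes with prefix, treatment, their product and genotype, for each member and as the median of all genes for each factor. Prefix is the longest bar for most members, treatment exceeds prefix for Myom1, Tnnt3 and Tnni2, and genotype is the longest for Mef2c (75.3%) and Myom1 (46.6%).

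Myod1, Myog and Myf5 and the sarcomere genes were not lowered alike in the libraries of the larger prefix. The sarcomere level minus that of Myod1, Myog and Myf5 was 0.26, -0.07, 0.28 and 0.39 in the replicate 1 libraries and 0.58 to 0.81 in the other 8, with no overlap. Myf5 enters that level because the filter kept it through libraries where it was high, so this contrast is no separate support. Against all 5 tested regulator and fusion genes, which include Mef2c and Mymk, the prefixes did overlap. The sarcomere level was then 4.26 against 3.99 in WAY control 1, and 2.68 against 2.59 in untreated mutant 2. Relative to Myog within each library, 20 of the other 33 members were higher in all 8 libraries of the larger prefix than in all 4 of the smaller, where 6.71% of genes were, and 0 were lower. Myog itself was lower in the 8, and 14092 of 14106 genes had a higher mean relative to it: the median shift was 1.36 for all genes and 0.54 for the members. The shift was largest for Ckm (2.22), Mef2c (1.6), Tnnt3 (1.29), Myom1 (1.18) and Tnni2 (1.08). It was smallest for Myod1 (-0.09), Mymk (0.13) and Actc1 (0.18), whose ranges overlapped. This ratio was formed after the values had been seen and carries no test.

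**Figure D5:**
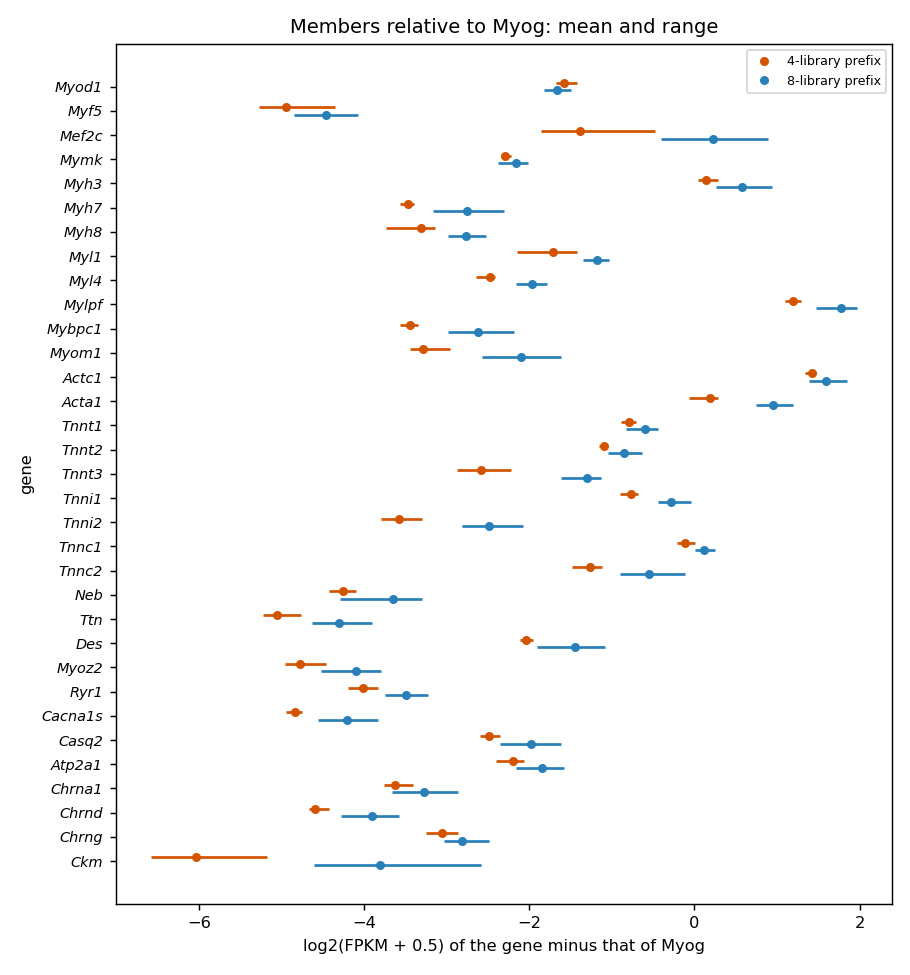
Mean (point) and range (line) of log2(FPKM + 0.5) of each member minus that of Myog, in the 4 libraries of the smaller prefix (orange) and the 8 of the larger prefix (blue). Myod1, Mymk and Actc1 overlap between prefixes, and Ckm, Mef2c, Tnnt3, Myom1 and Tnni2 are shifted by more than 1.

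Other muscle genes were taken from lists made with earlier results of these data known. Of 34 tested genes of differentiated muscle that are not members, 21 were lower and 1 higher in the libraries of the larger prefix (median -0.61), 17 passed between title numbers and 0 between genotypes over both treatments (34 of 34 above 0). Of 12 precursor and head muscle genes, 7 were lower and 2 higher in the libraries of the larger prefix, and 0 passed between genotypes over both treatments (5 of 12 above 0, median -0.03). Their summed level in untreated control 1 was 120.1 FPKM, above the 86 to 115.7 FPKM of the 8 libraries of the larger prefix and below the 136.1 to 140.5 FPKM of the rest of its own. Pax7, the factor of muscle progenitors, was lower by -0.852 ± 0.167 (limma, adjusted p = 0.00218), while Pax3 was higher by 1.02 ± 0.079 (5.76e-06). Pax3 was at 0.855 to 0.974 FPKM in the smaller prefix, so the filter kept it through the libraries where it was high. Its call is therefore no separate support, although the count includes it. The same holds for any call of Musk and Trim63, which reached 1 FPKM only in libraries of the smaller prefix.

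Markers of several other tissues moved with the prefix too, and their part in the muscle result was not tested. Of all genes, 20.8% were higher in the larger prefix and 23% lower. Of 9 neuron markers 1 was higher and 0 lower, and of 6 endothelium markers 1 was higher and 1 lower. Of 5 tendon markers 2 were higher and 1 lower, and of 6 anterior palate markers 1 was higher and 3 lower. Bone markers (7 of 7 tested) were higher in the libraries of the larger prefix, with summed levels of 728.6 to 1321 FPKM against 73.8 to 121.2, and no listed bone marker was at 0 throughout. Among them, Dmp1 was at 0.196 to 0.349 FPKM in the smaller prefix. The filter kept it through the libraries where it was high, so its call is no separate support. Oral epithelium markers (7 of 8) were higher as well, at 695.9 to 1166 against 292.5 to 480.8 FPKM. Of 3 tested markers of tongue epithelium and dorsal tongue, 2 were higher and 0 lower, with 2 of 3 above 0. Those 2 were the oral and tongue keratins Krt13 (3.16 ± 0.154) and Krt4 (2.12 ± 0.097). Markers of the posterior palate (4 of 5) were lower, at 188.6 to 228.3 against 286.7 to 357.5 FPKM, as were 6 of 7 cartilage markers (83.9 to 148.2 against 178.2 to 232.8 FPKM) and 5 of 7 Schwann cell markers (23.1 to 40.3 against 28.8 to 57.4 FPKM). Blood markers summed to 1086 to 1421 FPKM in the smaller prefix and 656.4 to 900.2 FPKM in the larger, where 3 of 6 were lower and 2 higher. The embryonic globin Hbb-y was at 701 to 897 against 163 to 253 FPKM. Of 8 palatal mesenchyme markers 5 were lower and 1 higher, at 549.4 to 584.3 FPKM in the smaller prefix and 460.8 to 528.9 FPKM in the larger. Among 7 smooth muscle and pericyte markers 3 were lower and 2 higher. Acta2, smooth muscle actin, which early skeletal muscle also makes, was at 52.3 FPKM in untreated control 1 and at 105 to 119 in the other 3 libraries of its prefix, against 48.7 to 74.9 in the 8. Untreated control 1 resembled its prefix in bone (102.6 FPKM), cartilage (208.6) and posterior palate markers (286.7). It left its prefix in muscle and also in Schwann cell markers, at 28.8 FPKM against 46.4 to 57.4 in the other 3. The extraction text of the labels names E13.5 beside E14 although every sample is labelled day 14, and which libraries that concerns is not said. The controls differ by prefix as well: those of the smaller are wild-type, and those of the larger are Pax9+/- except WAY control 3. The labels give no further feature by which the prefixes differ.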

How the data were processed

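The table of FPKM values was made and deposited by the authors; the labels describe oligo(dT)-selected TruSeq libraries, and the submitters' processing notes name Novoalign 2.08.03, DESeq2 and mm10. Counter, strand setting and annotation: not given in the sources used here. Reads recovered from the FPKM steps were whole within 0.001 read for 99.99% of genes. Symbols were found for 18752 genes, and positions come from GENCODE M21.

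Tests used limma 3.58.1 (R 4.3.3) on log2(FPKM + 0.5) of genes at 1 FPKM or more in 3 libraries, fitted over 4 groups and 12 libraries with Benjamini-Hochberg adjustment; fold changes of low genes are understated by the added 0.5. Title numbers were tested with genotype in the fit, prefixes with the groups in it. Shares are of the sum of squares, each factor alone. Alternatives were pseudocounts of 0.1 and 1, no filter or 5 FPKM, median-ratio scaling, title number as a block, prefix as a term, the 8 libraries of the larger prefix alone, and leaving out each library. On simulated data (14106 genes) 80.8% of 1.5-fold and 89.9% of 2-fold changes between genotypes over both treatments were recovered, and 72.9% and 87.9% between prefixes. The changed genes were drawn at random from all genes, so these shares do not give the recovery for the members. The muscle level had a pooled SD within groups of 0.612 on the log2 scale.

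The main tests of genotype and treatment did not pair the samples by title number. Pairing entered only where the title number was fitted as a block, and in the differences described within each title number. Deviations from the group means were compared between libraries of different groups. Same-numbered libraries correlated with r of 0.324 to 0.833 in all 10 such pairs. Same-numbered pairs within a group, at -0.057 to 0.332, are not in that range. The 44 pairs with different numbers ran from -0.73 to 0.848. Among those, pairs of different prefixes were all negative, and pairs of 1 prefix with different title numbers ran from 0.219 to 0.848. The correlations therefore do not tell title number from prefix, and the labels do not say what the number marks. No 2 replicates were copies (chi-square per degree of freedom 4.35 to 103.37). Members and lists were chosen with earlier results of these data known. Values in every library are given for the 4 myogenic factors, Mymk, Mef2c and, per other role, the member with the highest mean and the one with the widest range; the rest are summarised, and in each comparison the members past the threshold or the 3 with the smallest p are named. Other members were singled out after their values had been seen. P-values measure the spread between embryos, 3 per group. In the fit over 4 groups this spread includes the shift between prefixes. Replicate 1 of each group is of the smaller prefix and replicates 2 and 3 are of the larger. Opposite-strand genes in the table overlap Myom1, Acta1, Tnnt3, Tnnc1, Tnnc2 and Atp2a1, whose reads could be mixed if strand was not used.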

Additional observations from a re-analysis of the deposited data

Results flagged for a closer look

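A sample far from the others was looked for in the muscle levels and in the members described library by library, within each prefix, genotype and treatment (4 to 8 libraries each). It was found in 20 of 96 sets over 16 quantities; chance alone gives about 1 in 20, and the sets share libraries. The screen was first run within prefixes alone and then widened after its first output had been seen; its first list of members had been chosen by hand and was then replaced by the members that the naming rule gives. The number given is the gap to the nearest library divided by the whole range.

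Within the smaller prefix, untreated control 1 was lowest for the level of all members (0.859), the sarcomere (0.894), Myog (0.878), Mymk (0.928), Mylpf (0.952), Myh8 (0.918) and Actc1 (0.865). Among the 6 controls, WAY control 1 was highest for all members (0.664), the myogenic factors (0.671), Myog (0.701), Actc1 (0.816), Des (0.689), Atp2a1 (0.8), Casq2 (0.706) and Chrng (0.74). Among the 6 untreated libraries, untreated mutant 1 was highest for the myogenic factors (0.659), Myod1 (0.661), Myog (0.649), Mymk (0.705) and Actc1 (0.668).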

How the results depend on the processing

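The title number as a replicate block gave 1 member between genotypes with WAY and 2 over both treatments (Mef2c and Myom1), against 0 and 1 without it, and changed no other count of calls among the members. Prefix as a term gave 1 untreated (0.737% of all genes), 1 with WAY (12.8%) and 2 over both treatments (9.87%). The 8 libraries of the larger prefix alone gave 1 with WAY (2.02% of all genes) and 2 over both (3.13%). Leaving out each library in turn gave 3 to 30 members between title numbers (17 with all), 11 to 31 between prefixes (27 with all), 0 to 1 between genotypes over both treatments and 0 to 1 with WAY, and a title-number share of 39.7% to 86.2%; a share was called moved past 10 points, a limit set after seeing the values. Counts under the pseudocounts, filters and scaling stayed within 1.5 times: 12 to 18 between title numbers and 18 to 28 between prefixes. The filters change how many members are tested. Shares of all genes under these settings are not given here, so these counts are not set against a background. The member medians changed sign in 3 cases, none of them called: genotype with WAY was -0.112 without WAY mutant 1, WAY in mutants -0.179 without untreated mutant 2, and the interaction 0.146 without untreated mutant 1. Genotype with WAY had a median of 0.669 without WAY control 1 (0.262 with all), and genotype over both treatments ran from 0.189 without untreated mutant 1 to 0.646 without untreated mutant 2 (0.431 with all). The cause of these changes was not tested. Depth limits Myf6, Ckm and Myf5, at 2 to 18, 12 to 145 and 26 to 219 reads.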
